A study of Homo sapiens with 9 samples.

Results

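AP-1 is a transcription factor made of 2 basic leucine zipper (bZIP) proteins, usually one of the JUN group bound to one of the FOS or ATF group. JUN proteins can pair with each other or with a FOS protein, whereas FOS proteins need a JUN partner to bind DNA. Many of these genes are immediate early genes, whose short-lived mRNAs appear within minutes of a growth factor or stress signal and are then degraded. The MCF10A line, human breast epithelium that is not transformed, is grown with EGF, a signal known to reach the FOS and JUN promoters through MAP kinases. The 8 genes described here are JUN, JUNB, JUND, FOS, FOSB, FOSL1, FOSL2 and ATF3, chosen by name from 25797 genes. They take up 11 distinct intervals of 33456, and all 8 had reads in each library.

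The cells were JUN knockout MCF10A cells that were given back JUN fused to V5 and an auxin-inducible degron (AID), together with TIR1, the plant receptor that sends AID-tagged proteins to the proteasome when indole-3-acetic acid (IAA) is present. All groups carried both constructs. The "no 4sU" libraries came from cells that received no 4-thiouridine (4sU). Whether these cells were given the solvent DMSO is not stated in the labels, so 4sU and any other step that differed between these groups cannot be told apart. The "DMSO 4sU" cells received DMSO for 1 h and 100 µM 4sU for another 1 h, and the "IAA 4sU" cells received 100 µM IAA in place of DMSO. SLAM-Seq reads 4sU as a T>C change after alkylation, so that the T>C conversion rate of a transcript, the percentage of its T positions read as C, rises with the share of it that was made during the pulse. Of 9 samples in 3 groups, the 3 IAA columns held identical values in all 56868 rows and were counted as 1 library, which leaves 7 libraries of 3, 3 and 1. Each comparison with IAA therefore has no replicate check.

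The libraries held from 18997637 to 24014195 reads, 20057746 of them in the IAA library. The median T>C conversion rate over 10547 genes lay between 0.0527 and 0.0542% without 4sU, between 0.195 and 0.264% with DMSO and 4sU, and at 0.236% with IAA and 4sU. The mammary epithelial markers fixed for the label check, among them KRT5, KRT6A, TP63 and CDH1, were at 1 CPM or more in 10 of 10 cases. Their summed level was 4062 to 5058 CPM without 4sU, 4970 to 5200 CPM with DMSO and 4sU, and 5002 CPM with IAA. Of 12 markers of other cell types, 7 had any reads, with PTPRC, CD3E, VWF and NEUROD1 among those at 0, and their sum was 4.11 to 5.85, 3.96 to 7.80 and 10.6 CPM. COL1A1 alone reached 1 CPM on average, and it stood at 9.82 CPM in the IAA library. Its part in the results was not tested.

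The members lie on 5 chromosomes, given here in GRCh37 with the transcript identifier of the table. JUN (NM_002228) spans chr1:59242517-59249720 on the minus strand and ATF3 (NM_001040619) chr1:212738676-212794119 on the plus strand. JUNB (NM_002229) at chr19:12902300-12904129 and FOSB (NM_001114171) at chr19:45971253-45978437 are on the plus strand of the chromosome that also holds JUND (NM_001286968) at chr19:18390504-18392432 on the minus strand. FOS (NM_005252) is at chr14:75745529-75748933 and FOSL2 (NM_005253) at chr2:28615315-28640184, both on the plus strand, and FOSL1 (NM_001300855) at chr11:65659520-65668044 on the minus strand. The counted interval had the length of an annotated 3′ UTR for JUN, JUND (750 bases) and FOSB (2170 bases). For the others no annotated 3′ UTR segment had exactly the length of the interval.

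The 3′ end of the mRNA is both where the reads fall and where signals for rapid decay lie. AU-rich elements built on ATTTA are a textbook mark of short-lived cytokine and immediate early mRNAs. The stretches from the 3′ UTRs of FOS, JUN and JUND, which carried the highest, an intermediate and the lowest 4sU label of the members that passed the test on the rate, show the longest AU-rich motif found, in capitals. Sequences are from GRCh37, read 5′ to 3′ on the strand of the gene.
FOS, chr14:75748763-75748791, plus strand: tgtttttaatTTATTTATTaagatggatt
JUN, chr1:59246491-59246519, minus strand: ttgcttatgaaTATTTATaacagcattct
JUND, chr19:18390808-18390836, minus strand: cgattctgcccTATTTATgtttctactcg
The motif searched in the first is TTATTTATT, and TATTTAT in the others, on the strand of the mRNA. The FOS 3′ UTR, 809 bases long, held ATTTA 5 times, or 6.18 per kilobase, and 5.88% of 7088 annotated 3′ UTRs of comparable length (at most 2 times shorter or longer) were at least as dense. JUN held ATTTA 3 times in 1287 bases, and 40.1% of comparable 3′ UTRs were as dense. JUNB held it 2 times in 503 bases, with 16.9% as dense, and JUND once in 750 bases, with 54.8% as dense. FOSB had 3, FOSL1 had 1, FOSL2 had 9 and ATF3 had 3 copies, and between 37.3 and 64.3% of 3′ UTRs of comparable length were as dense. TTATTTATT was present in FOS and FOSL2, and in 5.19% and 18.5% of 3′ UTRs of like length. The shorter TATTTAT, shown for JUN and JUND, was present in 33.1% and 22.1% of 3′ UTRs of like length. JUNB, which came next after FOS in 4sU label, held neither TTATTTATT nor TATTTAT. A link between motif and label was not tested. These matches describe the letters and are not mapped sites of decay.

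The second set of sequences is shown because several of these genes are known to be bound by AP-1 or ATF proteins at their own promoters, which is textbook knowledge for JUN and ATF3. The RefSeq promoter table (GRCh38.p14, 250 bases before to 50 bases after a start) held 8 promoters for 7 members, and FOSL1 had none. The motif found is in capitals, read on the strand of the gene.
JUN, chr1:58784096-58784125, minus strand: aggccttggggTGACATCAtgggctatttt
JUN, chr1:58784215-58784244, minus strand: gcagcggagcaTTACCTCAtcccgtgagcc
ATF3, chr1:212565273-212565302, plus strand: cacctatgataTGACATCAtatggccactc
FOS, chr14:75278752-75278781, plus strand: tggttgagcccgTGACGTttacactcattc
JUND, chr19:18281804-18281833, minus strand: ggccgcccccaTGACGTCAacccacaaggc
FOSL2, chr2:28392851-28392879, plus strand: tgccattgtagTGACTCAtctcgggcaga
FOSB, chr19:45467924-45467953, plus strand: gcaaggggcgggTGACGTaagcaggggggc
Searched on both strands, TGACATCA lay in 2.61% of 35116 promoters, TTACCTCA in 0.715%, TGACGTCA in 1.85%, its shorter form TGACGT, which overlaps it, in 7.98%, and TGANTCA, matched by TGACTCA in FOSL2, in 7.71%. In JUN the TGACATCA began 67 bases and the TTACCTCA 186 bases upstream of the start, and in ATF3 the TGACATCA began 123 bases upstream. The TGACTCA of FOSL2 began 4 bases after the start. Not shown are a TGACGT that began 66 bases upstream in FOSL2 and a further one, on the opposite strand, 87 bases upstream in JUND. JUNB held none of these letters in its window.

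Without 4sU, JUN, JUNB and JUND together made up 71.6 ± 7.48% (SD, n = 3) of the summed CPM of the 8 members. Levels between genes are compared per kilobase of interval, although 3′ end reads do not grow in proportion to its length. With the interval that holds most reads, JUNB stood highest with a mean of 70.6 CPM per kilobase, ahead of JUN with 39.0, JUND with 24.3 and FOSL1 with 20.1. FOS followed with 11.5, FOSL2 with 2.41, ATF3 with 1.76 and FOSB with 0.350 CPM per kilobase. The ranges of the 3 libraries overlapped between JUND and FOSL1 and between FOSL2 and ATF3, and the other neighbours in this order did not overlap. The order of FOSL1 and ATF3 depended on the interval. Per kilobase of its shortest interval, 753 bases, FOSL1 reached 30.8 and stood above JUND, with a range that overlapped JUN too, and ATF3 over 1225 bases was at 2.41, level with FOSL2. With DMSO and 4sU the order was JUND at 36.3, JUNB at 30.2, JUN at 19.7, FOSL1 at 12.2, FOS at 3.75, ATF3 at 2.06, FOSL2 at 1.35 and FOSB at 0.667 CPM per kilobase. There JUND and JUNB, JUNB and JUN, and FOSL2 and FOSB overlapped in range. With the shortest intervals FOSL1 was at 18.7 CPM per kilobase, where its range overlapped that of JUN. ATF3 was at 2.80 CPM per kilobase, where its range overlapped that of FOS, and the order of the means was the same.

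**Figure D1:**
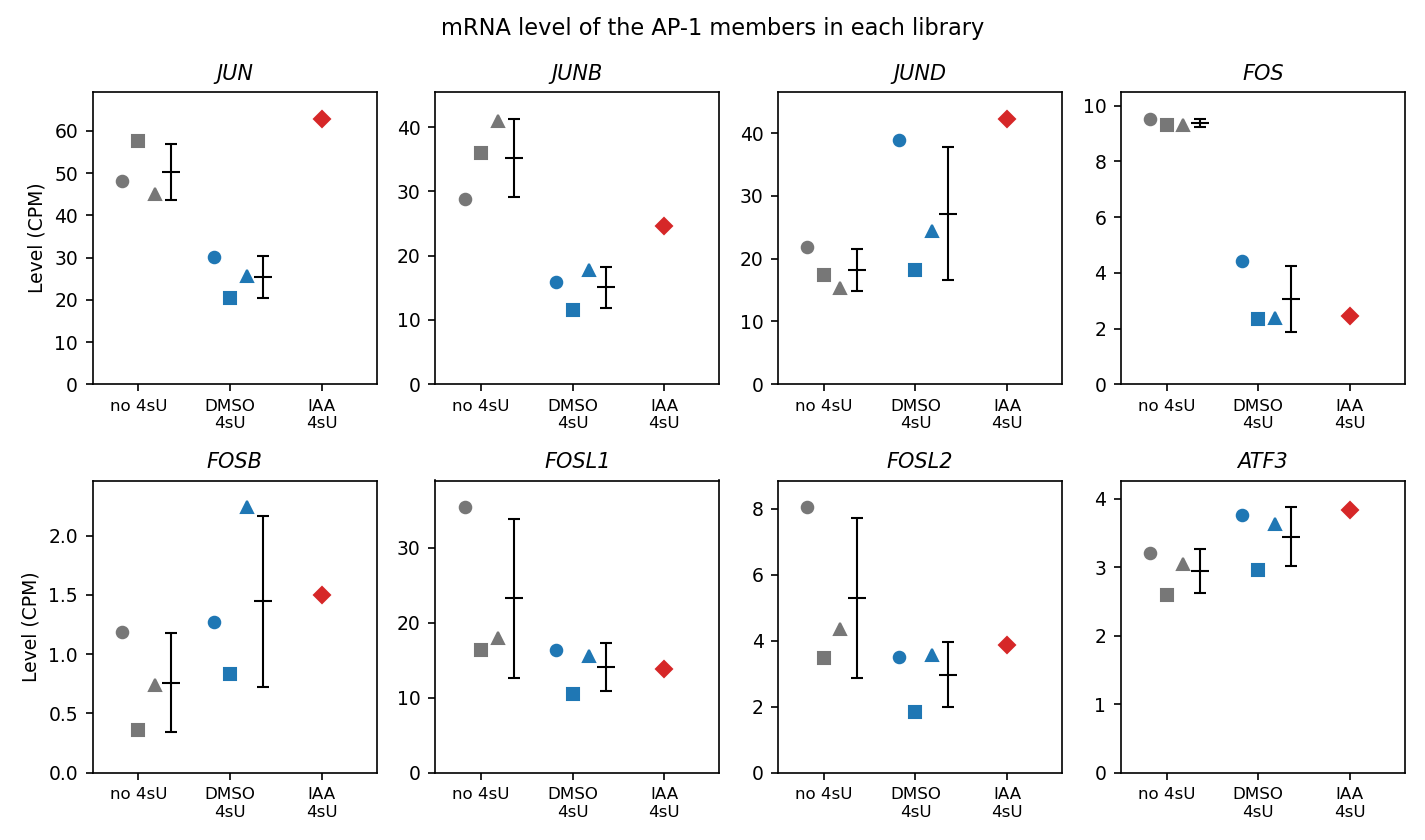
Level of each AP-1 member in CPM (vertical axis, linear from 0) in the no 4sU, DMSO 4sU and IAA 4sU libraries (horizontal axis). Circles, squares and triangles are replicates 1, 2 and 3, the diamond is the single IAA library, and black bars give the mean ± SD of 3 libraries. JUN, JUNB and FOS are lower with DMSO and 4sU than without 4sU in all libraries, and JUN in the IAA library stands at 62.9 CPM, above every other library.

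The first comparison set DMSO 4sU against no 4sU in total mRNA, the steady-state pool, and asks whether the labelled cells held these mRNAs at the level of unlabelled cells. FOS, JUNB and JUN, 3 textbook immediate early genes, were lower with 4sU, and no member passed as higher. With limma on log2(CPM + 1) over 12017 genes, 189 genes (1.57%) passed as lower at an adjusted p of 0.05, and 3 of the 8 members were among them. On the TMM-scaled values, 5 of the 8 members (these 3, FOSL1 and FOSL2) had every labelled library below every unlabelled one, as did 10.3% of all genes, and 0 had every labelled library above, as did 7.84% of all genes. Genes passing as higher numbered 0 with limma and with edgeR and 6 with DESeq2, and 363 were higher at an unadjusted p under 0.05 in limma. In bulk samples, fewer cells that express a gene and less of its mRNA per cell cannot be told apart.

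FOS, the founding partner of JUN, was at 9.54, 9.29 and 9.32 CPM without 4sU and at 4.42, 2.33 and 2.39 CPM with DMSO and 4sU. The groups were far apart and the libraries without 4sU nearly level, with means of 9.38 ± 0.136 and 3.05 ± 1.19 CPM (SD, n = 3). The log2 change was -1.42 (SE 0.22, adjusted p = 0.0127, limma). These values rest on 177 to 208 reads per library without 4sU and 48 to 94 with it.

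JUNB, a JUN relative that is a weaker activator on many targets, was at 28.8, 35.9 and 41.0 CPM without 4sU and at 15.9, 11.6 and 17.7 CPM with it. The groups did not overlap. JUNB changed by -1.20 on the log2 scale (SE 0.21, adjusted p = 0.0235, limma).

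JUN was at 48.1, 57.6 and 45.0 CPM without 4sU and at 30.2, 20.3 and 25.6 CPM with DMSO and 4sU. Every labelled library was below every unlabelled one, and the log2 change was -0.996 (SE 0.19, adjusted p = 0.0298, limma). When libraries of the same number were paired as a replicate block, JUN had an adjusted p of 0.054 and no longer passed, while FOS (0.0227) and JUNB (0.0238) did. The JUN reads fall in 1 interval whose 1287 bases equal the annotated 3′ UTR at 59246463 to 59247749 on chromosome 1 (GRCh37). Auxin removes JUN protein and not its mRNA, so these reads say nothing of how much protein was left. Whether the JUN-AID-V5 vector, whose name in the methods includes the EF1a promoter, carries this UTR is not given in the sources used here. Reads from the knocked-out locus and from the vector therefore cannot be told apart.

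The calls for these 3 genes depended on single libraries. All 3 still passed without no 4sU replicate 1, and FOS and JUN passed without DMSO 4sU replicate 1, where JUNB had an adjusted p of 0.082. Without no 4sU replicate 2 the adjusted p was 0.158 for JUN, 0.113 for JUNB and 0.0635 for FOS, and without no 4sU replicate 3 it was 0.0974, 0.112 and 0.0591. Without DMSO 4sU replicate 2 the 3 values were 0.115, 0.0957 and 0.0634, and without DMSO 4sU replicate 3 they were 0.15, 0.062 and 0.0801. The log2 change kept its sign in each of these fits and ranged from -1.12 to -0.85 for JUN, from -1.39 to -1.04 for JUNB and from -1.65 to -1.30 for FOS.

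The remaining 5 members did not pass. FOSL1 (FRA-1), the FOS relative that lacks a strong activation domain, was at 35.4, 16.4 and 18 CPM without 4sU and at 16.3, 10.5 and 15.5 CPM with it. Replicate 1 without 4sU stood apart from the other two, and the remaining libraries nearly met. Its log2 change was -0.67 (SE 0.27, adjusted p = 0.41, limma). FOSL2 (FRA-2) showed the same high replicate 1, with 8.06, 3.49 and 4.37 CPM against 3.52, 1.83 and 3.58 CPM, and a log2 change of -0.65 (SE 0.29, adjusted p = 0.46). Its groups overlapped slightly in the CPM as deposited.

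JUND, the member known for a steady mRNA and a restraining role in growth, was at 21.8, 17.4 and 15.4 CPM without 4sU and at 38.9, 18.2 and 24.5 CPM with it. The labelled libraries varied widely and overlapped with the unlabelled ones, and the log2 change of 0.48 (SE 0.25, adjusted p = 0.56) did not pass. ATF3, a stress-induced repressor, was nearly level, with 3.21, 2.59 and 3.05 CPM against 3.76, 2.96 and 3.63 CPM and a log2 change of 0.17 (SE 0.18, adjusted p = 0.81). FOSB was close to the limit of detection at 8 to 45 reads per library. It gave 1.19, 0.357 and 0.737 CPM without 4sU and 1.27, 0.833 and 2.24 CPM with it, and a log2 change of 0.45 (SE 0.25, adjusted p = 0.60).

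The AP-1 pool is the sum of the 8 levels in a library. JUND made up 12.5 ± 1.40% of it without 4sU and 28.8 ± 4.58% with DMSO and 4sU (SD, n = 3), and JUN 34.7 ± 4.99% and 27.7 ± 1.73%. With overlapping intervals of a gene summed, as in the tests, JUND made up 9.33 and 21.5% on average. FOS made up 6.47% and 3.26% of the pool on average. FOSL1 held 15.8 ± 6.06% and 15.3 ± 1.01%. The groups did not overlap for JUN, JUND, FOS, FOSB and ATF3, which gives p = 0.1 in a two-sided exact permutation test, the smallest that 3 libraries against 3 allow (adjusted p = 0.16 over the 8 members). No share could thus pass the threshold. The summed level was 145 ± 9.93 CPM without 4sU and 92.7 ± 23.0 CPM with it.

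**Figure D2:**
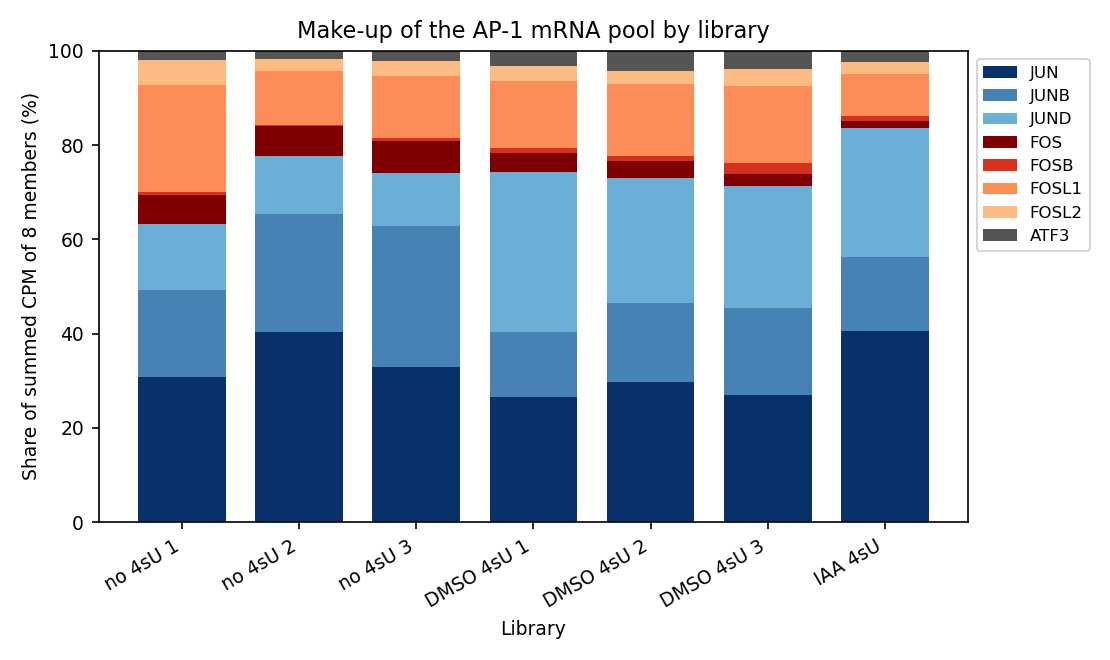
Share of each member in the summed CPM of the 8 AP-1 genes (vertical axis, percent) in each of the 7 libraries (horizontal axis), as stacked bars that add to the whole pool. The JUND segment averages 12.5% without 4sU and 28.8% with DMSO and 4sU, and the JUN segment is 40.5% in the IAA library, above the 3 DMSO 4sU libraries.

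The second comparison used the T>C conversion rate of the same 6 libraries, which asks how much of each mRNA had been made during the 1 h pulse. FOS had the highest rate of the AP-1 genes, and ATF3, FOSB and JUND the lowest, although ATF3 and JUND were still above the median of each labelled library on average. In limma on log2(rate + 0.0005), 5147 of 10547 genes (48.8%) passed as higher with 4sU and 9 (0.0853%) as lower, and 6 of the 7 members tested were among the higher ones. The place of each member among these genes is given beside the call.

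FOS had rates of 0.158, 0.0487 and 0.0190% without 4sU and of 9.39, 7.44 and 5.13% with DMSO and 4sU. The mean rate with 4sU, 7.32 ± 2.13% (SD, n = 3), was exceeded by 56 of 10547 genes. The log2 difference of the rate was 5.99 (SE 0.55, adjusted p = 0.00131, limma). JUNB was the most even member, with 4.44, 4.06 and 4.08% with 4sU against 0.0786 ± 0.0173% without it, and 190 genes had a higher rate. Its difference was 5.05 (SE 0.34, adjusted p = 0.000652).

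FOSL1 reached 2.82, 4.31 and 2.31% with 4sU, and JUN 3.08, 2.03 and 2.37%. Both stood far above their unlabelled means of 0.0555 ± 0.0451% and 0.0413 ± 0.0101% (SD, n = 3). The differences were 4.96 for FOSL1 (SE 0.46, adjusted p = 0.00138) and 4.78 for JUN (SE 0.34, adjusted p = 0.000768), and 289 and 398 genes had higher rates.

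JUND lay much lower, at 0.843, 0.551 and 0.358% with 4sU against 0.0713 ± 0.0248% without it, and 2171 genes exceeded its mean. The difference was 2.33 (SE 0.40, adjusted p = 0.00656). ATF3 gave 1.53, 0.343 and 0.673% from 71 to 80 reads, with 0.0557 ± 0.0484% in the unlabelled libraries and a difference of 3.0 (SE 0.66, adjusted p = 0.0146), and 1416 genes exceeded its mean. Its labelled libraries spread more than those of the JUN group.

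FOSL2 was the exception. Its unlabelled libraries already read 0.632, 1.07 and 1.21% of T as C, a mean that only 103 of 10547 genes exceeded. With DMSO and 4sU it reached 1.56, 2.11 and 1.40%, above all unlabelled libraries, but the log2 difference of 0.80 (SE 0.44, adjusted p = 0.17) did not pass. FOSB was listed at 0 in all unlabelled libraries and at 1.06, 0.880 and 0% with DMSO and 4sU. It did not pass the filter on low values and, without that filter, had a difference of 2.90 with an adjusted p of 0.125.

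**Figure D3:**
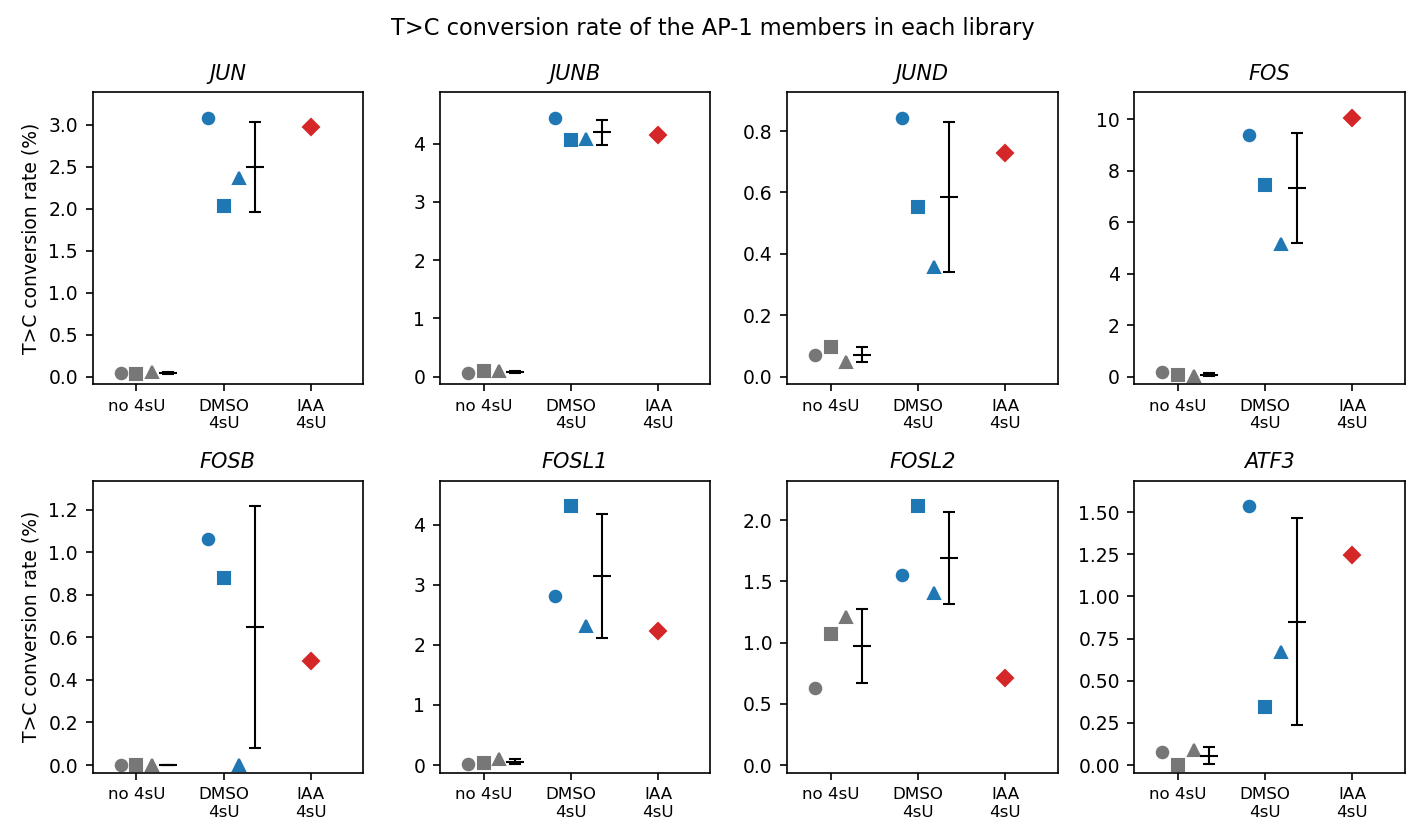
T>C conversion rate of each AP-1 member in percent (vertical axis, scaled per gene) in the no 4sU, DMSO 4sU and IAA 4sU libraries (horizontal axis). Circles, squares and triangles are replicates 1, 2 and 3, the diamond is the single IAA library, and black bars give the mean ± SD of 3 libraries. FOS reaches 5.13 to 9.39% with DMSO and 4sU, and FOSL2 is the member with rates of 0.632 to 1.21% already without 4sU.

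The members with the highest rates were those with the lowest change of total mRNA. Ordered by rate with DMSO and 4sU, they ran FOS, JUNB, FOSL1, JUN, FOSL2, ATF3, FOSB and JUND, and their log2 changes were -1.42, -1.20, -0.67, -0.996, -0.65, 0.17, 0.45 and 0.48. The rates in this order include the background, which for FOSL2 was 0.970% without 4sU against 1.69% with DMSO and 4sU. The place of FOSL2 thus rests in part on background. Spearman's rho with these rates was -0.976 over the 8 genes, given as a description, since both measures come from the same libraries with DMSO and 4sU. The same relation was present across 10460 genes, with a rho of -0.428. The rate thus moved with the change in total mRNA, and its part in that change was not tested.

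**Figure D4:**
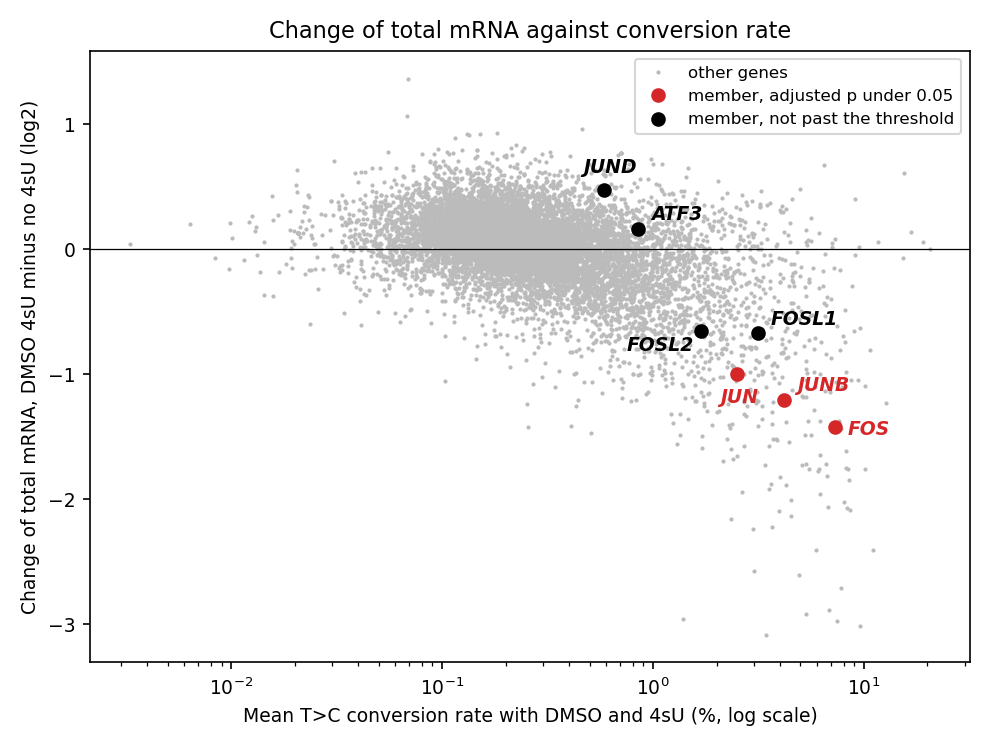
Log2 change of total mRNA from no 4sU to DMSO 4sU (vertical axis) against the mean T>C conversion rate with DMSO and 4sU in percent (horizontal axis, log scale), with 1 point per gene. Grey points are other genes, red points the members with an adjusted p under 0.05 in the unpaired fit and black points other members tested in both. Among the members, FOS lies lowest at -1.42 with a rate of 7.32%, and JUND highest at 0.48 with 0.584%, and other genes lie beyond both.

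The third comparison set the IAA library against the 3 DMSO 4sU libraries, and asks what AP-1 mRNAs did when JUN protein was to be depleted. It shares the DMSO 4sU libraries with the comparisons above. Without replicates there is no test. The IAA library correlated most with DMSO 4sU replicate 1 (Pearson r = 0.992 over 12118 genes, against 0.981 and 0.987 for replicates 2 and 3). Which culture replicate the IAA library came from is unknown, so IAA and culture replicate cannot be told apart. A gene was counted as different when it lay at least 1 log2 unit from the DMSO mean and outside the range of the DMSO libraries, which held for 18 of 12029 genes upwards (0.15%) and for 8 downwards (0.0665%) in total mRNA. JUN was the 1 member counted, and it was higher.

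JUN stood at 62.9 CPM in the IAA library (1262 reads, exact Poisson 95% interval 59.5 to 66.5, which covers counting error only). This was 2.08, 3.10 and 2.46 times the level of DMSO 4sU replicates 1, 2 and 3, and 1.25 times the mean without 4sU. On the scaled log2 values the difference from the DMSO mean was 1.21, against an SD of 0.27 among the DMSO libraries, and 6 of 12029 genes had a larger one. It was between 1.08 and 1.34 in all 8 alternatives. The JUN promoter window holds TGACATCA and TTACCTCA, and what bound there was not measured in these libraries. Here too, JUN reads from the knocked-out locus and from the vector cannot be told apart. The part of this promoter in the JUN level was not tested.

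JUNB was at 24.6 CPM with IAA (95% interval 22.5 to 26.8) and JUND at 42.3 CPM (39.5 to 45.3), both above all 3 DMSO libraries. The log2 differences were 0.61 and 0.60, under the 1 log2 unit set, with DMSO SDs of 0.30 and 0.53. A place above the DMSO range is common in these data, where 21.1% of genes lay above it and 20.7% below. JUND was only 1.09 times DMSO 4sU replicate 1.

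The FOS group and ATF3 stayed near the mean of the DMSO libraries. FOS had 49 reads and 2.44 CPM (95% interval 1.81 to 3.23), 0.553 times DMSO replicate 1 and 1.05 and 1.02 times replicates 2 and 3. Its scaled log2 difference of -0.26 was less than the DMSO SD of 0.39, and it lay below the DMSO range after TMM scaling but inside it on the CPM as deposited. FOSL1 was at 13.8 CPM with a difference of -0.09, FOSL2 at 3.89 CPM with 0.26, FOSB at 1.5 CPM with 0.02 and ATF3 at 3.84 CPM with 0.07. Each of these was within 1 SD of the DMSO mean, with FOSL2 above the DMSO range.

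**Figure D5:**
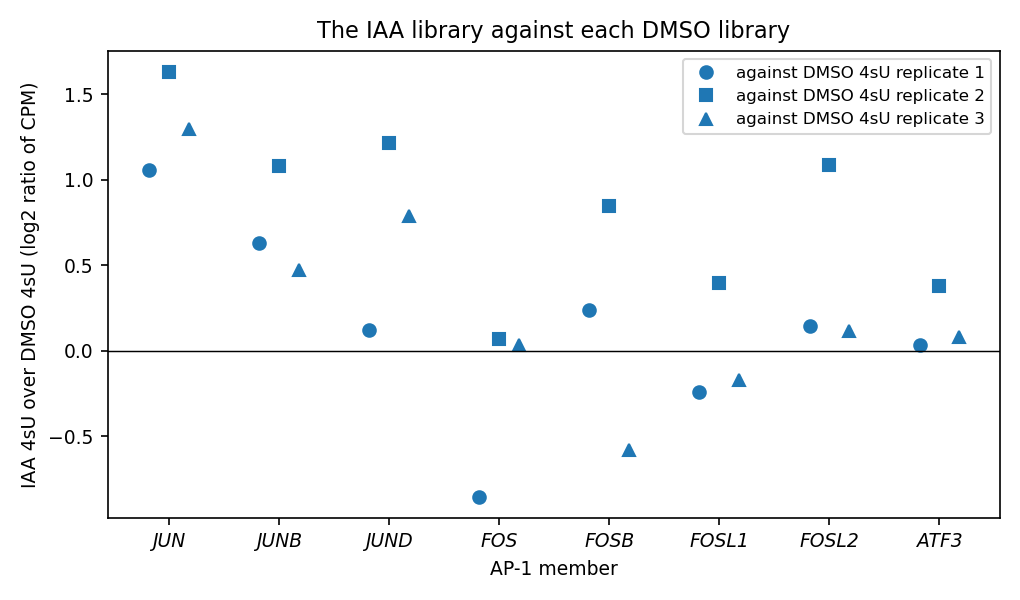
Log2 ratio of CPM as deposited in the single IAA 4sU library over each DMSO 4sU library (vertical axis) for the 8 AP-1 members (horizontal axis), with circles, squares and triangles for DMSO replicates 1, 2 and 3 and a line at 0 for no difference. JUN lies above 1 against all 3 libraries, with ratios of 2.08 to 3.10, whereas FOS ranges from 0.553 to 1.05.

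The conversion rates of most members were near those with DMSO. Called by the same rule, 10.2% of 11375 genes were higher and 11.2% lower in rate, so a call is common here. JUN had a rate of 2.97% with IAA, within the 2.03 to 3.08% of the DMSO libraries, and after centring each library on its median the log2 difference was 0.12, just outside the DMSO range. JUNB was at 4.14%, again within the DMSO range, FOS at 10.0% and FOSL1 at 2.23%. The centred differences of FOS (0.34) and FOSL1 (-0.59) lay outside the DMSO range but within 1 log2 unit, a place above that range being held by 22.9% of genes and below it by 26.5%.

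FOSL2 was the 1 member counted in rate, at 0.712% with IAA against 1.40 to 2.11% with DMSO and 4sU, a centred log2 difference of -1.32 (DMSO SD 0.42). This rate lay inside the unlabelled range of 0.632 to 1.21%, and it came from 78 reads. JUND (0.728%), ATF3 (1.24%) and FOSB (0.488%) lay within the DMSO range. The ATF3 difference of 0.60 became 1.02, and was counted, without DMSO 4sU replicate 1.

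The rate above the unlabelled mean of a gene, multiplied by its level, puts the 4sU-dependent conversions on the CPM scale. For JUN this product was 0.919, 0.404 and 0.596 CPM with DMSO and 4sU and 1.84 CPM with IAA, 2.88 times the mean. For JUNB it was 0.693, 0.463 and 0.710 CPM against 0.999 CPM, 1.61 times the mean. JUN and JUNB were the 2 members with a product above all 3 DMSO libraries, a place that 31.8% of 11375 genes held, while 17.1% lay below. JUND (0.278 CPM) and FOS (0.244 CPM) were within the DMSO range, and FOSL1, at 0.300 CPM against 0.451, 0.446 and 0.350 CPM, was below it. FOSL2 gives no usable product with IAA, since its rate there was below its unlabelled mean.

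JUN took up 40.5% of the AP-1 pool in the IAA library, and the JUN, JUNB and JUND shares together 83.6%, against 72.9 ± 1.57% with DMSO and 4sU (SD, n = 3). FOSL1 held 8.89% and FOS 1.57%. All 4 FOS genes together made up 13.9%, below the 23.3 ± 1.43% with DMSO and 4sU.

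Genes around AP-1 were taken from lists set out by role, as counts over the same fits. The first list held 28 tested bZIP genes that can pair with or resemble the members (ATF, CREB, CEBP and BACH genes among them). Their median log2 change from no 4sU to DMSO 4sU was -0.16, against 0.04 over all genes tested. CEBPD, a bZIP factor of the acute-phase response, missed the threshold at -1.02 (adjusted p = 0.0651, limma), as did the stress factor DDIT3 at -1.09 (adjusted p = 0.121) and CREB1, the cAMP-responsive factor, at -0.56 (adjusted p = 0.177). In rate, 22 of 24 of these genes passed as higher, against 48.8% of all genes tested.

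Over all genes tested, 1.57% passed as lower in total mRNA. Of 32 MAP kinase pathway kinases and SRF, ETS or MEF2 factors that act upstream of FOS and JUN, 1 was lower, MAP3K1, a kinase that feeds the JNK pathway, at -0.996 (SE 0.19, adjusted p = 0.0287), and the median was 0.03. The p38 kinase MAPK11 (0.59, adjusted p = 0.246) and the ERK5 kinase MAPK7 (-0.54, adjusted p = 0.369) did not pass. Of 17 genes of JUN turnover and of the NCOR corepressor complexes, TRIB1, a pseudokinase adaptor of the COP1 ubiquitin ligase, was lower at -2.07 (SE 0.28, adjusted p = 0.00724). FBXW7, a ubiquitin ligase subunit that recognises phosphorylated JUN, missed the threshold at -0.69 (adjusted p = 0.0841). The deacetylases HDAC2 (0.43, adjusted p = 0.358) and HDAC3 (0.50, adjusted p = 0.41) did not pass, and the median of this list was 0.145. In rate, 16 of 28 of the kinases and factors and 8 of 17 of the turnover and corepressor genes were higher. Both are near the 48.8% over all genes tested.

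Of 20 textbook AP-1 target genes tested, 3 secreted cytokines were lower, against 1.57% of all genes. LIF changed by -1.73 (SE 0.20, adjusted p = 0.00319), IL6 by -1.39 (SE 0.23, adjusted p = 0.0158) and IL1A by -0.95 (SE 0.20, adjusted p = 0.0471). VEGFA, the endothelial growth factor, missed the threshold at -0.63 (adjusted p = 0.0944). The median of the list was -0.12, and 17 of 18 passed as higher in rate, against 48.8% of all genes. In the IAA library, by the rule of 1 log2 unit, which is no test, 1 of 20 was counted as lower in total mRNA. Over all genes this share was 0.0665%. The gene counted was CXCL8, a chemokine named after its value was seen, at -1.12 with a DMSO SD of 0.72. No gene of the other lists was counted in total mRNA. In rate the same rule counted 0 to 2 genes of each list in either direction, against 10.2% of all genes higher and 11.2% lower. The mammary markers, with a median of 0.13, held 4 of 10 genes that passed as higher in rate, near the share of all genes.

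Finally, the genes with a profile most like each member were found by the Euclidean distance of their centred log2 levels over the 7 libraries, among 7177 genes with 200 or more reads. For JUN these were ZFP36, the gene of an AU-rich element binding decay factor, at a distance of 0.63, and TSC22D1 at 0.70. TSC22D1 was at 28.2 to 39.7 CPM with DMSO and 4sU and at 86.0 CPM with IAA, and ZFP36 at 4.68 to 7.03 and at 10.2 CPM. For JUNB they were TXNIP (0.365) and ID3 (0.466), for JUND FLOT2 (0.226) and CDA (0.241), and for FOSL1 JADE2 (0.281) and CSF3 (0.464). JADE2 shared the high replicate 1 without 4sU of FOSL1, with 30.1 CPM there and 13.9 and 15.1 CPM in the other two.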

How the data were processed

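SLAM-Seq libraries (QuantSeq 3′ ends) were analysed with a Nextflow SLAM-Seq pipeline by the authors, with hg19 named as build in the submitters' processing notes. They deposited 1 table with a T>C conversion rate per interval, a fraction without background subtraction, and a level scaled to library size and called CPM, a signal in which transcripts sharing an interval repeat its reads. Non-zero values were whole multiples of 1 read in 100.0% of cases (tolerance 0.001), which gave reads and depth. Identifiers were matched to symbols for 97.7% of rows with a RefSeq gene table (GRCh38.p14, names only). Columns of per-sample values left unused numbered 0.

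Rows of a gene with equal length and values were used once. Several intervals of a gene (20.2% of genes) were summed in CPM and averaged in rate for the fits. FOSL1 and ATF3 have nested intervals that repeat reads, so printed levels and shares are from the interval with most reads. Genes needed 10 reads in 3 of 6 libraries, or 2 of 4 for the IAA comparison, and for rates a value above 0 likewise. limma (3.58.1, R 4.3.3; trended, robust) was run on log2(CPM + 1) with TMM scaling and on log2(rate + 0.0005), adjusted by Benjamini-Hochberg over all genes tested. edgeR (4.0.16) and DESeq2 (1.42.0) on recovered reads were alternatives. Further alternatives were other pseudocounts, filters, scalings and intervals, the replicate block and leaving out each library. The planned tests of IAA against DMSO were not run, since 1 library was left. Changes are on the log2(value + pseudocount) scale and understate those of low genes. The study calls its SLAM-Seq replicates biological, which the labels do not state.

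On simulated data with 200 changed genes, limma on CPM recovered 83% of 3-fold changes with 7 false among 173 calls over 11903 genes. On rates, limma recovered 79% of 9-fold changes with 41 false among 199 calls over 10419 genes. That share of false calls on rates is above the 0.05 set. The simulated rates held counting error only, without spread between libraries, and far fewer changed genes than the data. This run therefore does not measure the error of the rate test in the data. Same-numbered no 4sU and DMSO 4sU libraries deviated together in total mRNA (correlations 0.401, 0.328 and 0.401 over 10023 genes) but not in rates (0.00768, -0.00396 and -0.0281), so the numbers pair the libraries in total mRNA. The replicate numbers come from the sample titles, and libraries of unlike number were not compared in this way. The main fits were nevertheless unpaired, and with the replicate block in the model JUN did not pass in total mRNA.

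Members and gene lists were chosen with earlier results of these data known. Named genes are the members, the 2 nearest profiles of each member with 200 or more reads per library, and up to 4 genes per list with the lowest p in total mRNA, of which 1 is not reported here. Other steps used Python 3.11.15 with numpy 2.4.6, scipy 1.17.1 and pandas 2.3.3.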

Additional observations from a re-analysis of the deposited data

How the results depend on the processing

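In total mRNA with 4sU, the 3 members that passed numbered 1 with no filter on low values, where 2 genes were higher and 170 lower, and DESeq2 called 6 genes higher and 412 lower. Leaving out 1 library gave 0 to 3 members, 0 to 2 genes higher and 64 to 268 lower. The replicate block gave 195 lower and ended the call of JUN (adjusted p = 0.054) and of no other member. In rate, the 6 members passed under every alternative that tested them, and genes lower numbered 2 to 22 on leaving out 1 library, against 9. For IAA in total mRNA, genes higher and lower numbered 39 and 22 with a pseudocount of 0.5, 5 and 1 with a pseudocount of 5, and 31 and 3 with the scaling as deposited. With the interval with most reads 3 were lower, and without 1 DMSO library 12 to 91 were higher and 1 to 17 lower. JUN was counted in each of these. For IAA in rate, 779 genes were lower with no centring and 1418 higher. With at least 200 reads on average 384 were higher and 423 lower, with 0 members, since FOSL2 has fewer reads. Leaving out 1 DMSO library gave 1 to 2 members, and the FOSB difference of 0.38 ranged from -1.01 without DMSO 4sU replicate 3, whose rate is 0, to 1.10. With intervals summed, the change in share was 12.1 points for JUND, -2.46 for FOS and 2.59 for ATF3, and with the interval with most reads it was 16.3, -3.22 and 1.77. Ordering by CPM rather than per kilobase moved 4 places without 4sU, and 4 with the shortest interval of each gene, an alternative chosen after seeing the data. The cause of these shifts was not tested. FOS, FOSB, FOSL2 and ATF3 rest on 8 to 208 reads per library, so a difference within their counting interval was not detectable at this depth.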
